A study of Homo sapiens with 36 samples.

Results

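The 10 genes followed here were the transcription factors FOXO1, FOXO3 and FOXO4 and the genes KLF2, PIK3IP1, IRS2, SESN3, CCNG2, TXNIP and PRR5L, known to be raised or to act as feedback when PI3K-AKT signalling falls. They are 10 of the 37549 genes with a symbol in the count table and were chosen by name; all 10 passed the filter on low counts in each cell line. The table holds 36 RNA sequencing libraries of MEC1, JVM2 and EHEB, established human B-cell lines used as models of chronic lymphocytic leukaemia (CLL). According to the study, MEC1 carries a mutated p53 and JVM2 and EHEB the wild-type gene. MEC1 was exposed for 48 h, JVM2 for 72 h and EHEB for 96 h, to 50 µM fludarabine, 5 µM ibrutinib, 10 µM idelalisib or the vehicle DMSO, with 3 libraries in each of the 12 groups. Differences between lines therefore cannot be told apart from differences in exposure time. The study says in general that results other than glucuronidation assays stand for at least 3 independent experiments. It does not say for the sequencing whether the 3 libraries of a group came from separate cultures, so the p values measure only the spread between these libraries.

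Phosphoinositide 3-kinase (PI3K) is activated below the B-cell receptor and switches on the kinase AKT, which phosphorylates FOXO proteins and holds them out of the nucleus. When PI3K or AKT is inhibited, FOXO proteins return to the nucleus and raise the transcription of genes that slow the cell cycle, guide lymphocyte traffic and restore signalling through the receptors. Idelalisib inhibits the PI3K catalytic subunit p110δ, encoded by PIK3CD, ibrutinib inhibits the kinase BTK, which lies between the receptor and several of its branches, and fludarabine is a purine analogue that damages DNA, so fludarabine served as a comparison with a drug that does not target a kinase.

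A FOXO binding motif, GTAAACA, stands in the promoter windows of 3 of the 10 genes, and an insulin response motif or an E-box in those of 2 more. The windows run from 250 bases before to 50 bases after each annotated start (RefSeq, GRCh38.p14), and all 10 genes had at least 1. They are shown with 8 bases on either side and with the motif in capitals, because these genes are grouped by a shared regulator.
FOXO4, motif on the gene's own strand 24 bases after the start, chrX:71095866-71095888 plus strand: ggcgagtgGTAAACAgagacgtc
PIK3IP1, motif on the opposite strand 17 bases after the start, chr22:31292458-31292480 minus strand: agagaggcTGTTTACcagaacag
TXNIP, motif on the gene's own strand 124 bases before the start, chr1:145996689-145996711 minus strand: ggctcctgGTAAACAaggaccgg
IRS2, insulin response motif CAAAACAA on the opposite strand 41 bases before the start, chr13:109786609-109786632 minus strand: gtcacatgTTGTTTTGctcttctt
CCNG2, E-box CACGTG 30 bases before the start, chr4:77157169-77157190 plus strand: cggggagtCACGTGccccgccc
Of 35116 promoter windows of this length, 3.42% hold GTAAACA on either strand, 1.68% hold CAAAACAA and 7.26% hold the E-box, which reads the same on both strands and overlaps neither of the others. PIK3IP1 and TXNIP have 2 windows each and the FOXO motif is in 1 of them. FOXO3 has 4 windows, PRR5L has 3 and each of the other genes has 1. The shares are per window and the count above is per gene, so the 2 are not like values. FOXO1, FOXO3, KLF2, SESN3 and PRR5L held none of these letters in their windows. A match is a description of the sequence only.

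The libraries held 26590705 to 53538925 counts in total. The ibrutinib and idelalisib libraries of each line carry library numbers from a higher series than the DMSO and fludarabine libraries, with no DMSO library among them, so the number series and a kinase inhibitor cannot be told apart in any comparison with DMSO or fludarabine. The comparison of idelalisib with ibrutinib lies within 1 series, and that of fludarabine with DMSO within the other. All 6 B-cell markers had a mean of at least 1 CPM (counts relative to the scaled library size) in each line, haemoglobin genes summed to at most 0.438 CPM in any library, and CD3D, CD3E, CD3G and CD2 were each below 1 CPM on average in MEC1 and JVM2. In EHEB these 4 T-cell genes summed to 3.40 to 15.6 CPM, with CD3D and CD3G below 1 CPM. Of 3 epithelial markers, 2 in MEC1 (KRT5 below 1 CPM) and 1 in JVM2 and EHEB (EPCAM and CDH1 below 1 CPM) passed 1 CPM, and they summed to 21.8 to 83.4, 9.21 to 18.7 and 78.6 to 153 CPM. The NK-cell, fibroblast and myeloid markers summed to at most 23.7, 24.7 and 13.3 CPM, with NCAM1, COL3A1, DCN, CD14 and LYZ below 1 CPM in each line, and the 3 plasma cell markers to 265 to 670 CPM. The part of these genes in the results was not tested. In RNA from bulk cultures, fewer cells that express a gene and less RNA per cell cannot be told apart.

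Before any drug, the genes stood at very different levels in the 3 lines. Per kilobase of exon with DMSO, TXNIP was highest in MEC1 and JVM2, with 71.6 and 50.9 CPM per kb, whereas FOXO1 led in EHEB with 46.7 CPM per kb. PRR5L was lowest in each line, at 0.0835 to 0.216 CPM per kb, and KLF2 lay next to it in JVM2 and EHEB. In a fit of all libraries, 24 of the 30 comparisons of a member between 2 lines passed the threshold of an edgeR adjusted p under 0.05, where 57.1%, 60.6% and 53.2% of all genes tested did for MEC1 against JVM2, MEC1 against EHEB and JVM2 against EHEB. FOXO3 differed most: it was lower in MEC1 than in JVM2 by a log2 fold change of −6.92 ± 0.41 (SE; adjusted p = 8.97e-15) and than in EHEB by −5.86 ± 0.39 (adjusted p = 1.34e-13). TXNIP was higher in MEC1 than in EHEB by 2.91 ± 0.10 and SESN3 lower by −2.32 ± 0.08.

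**Figure D1:**
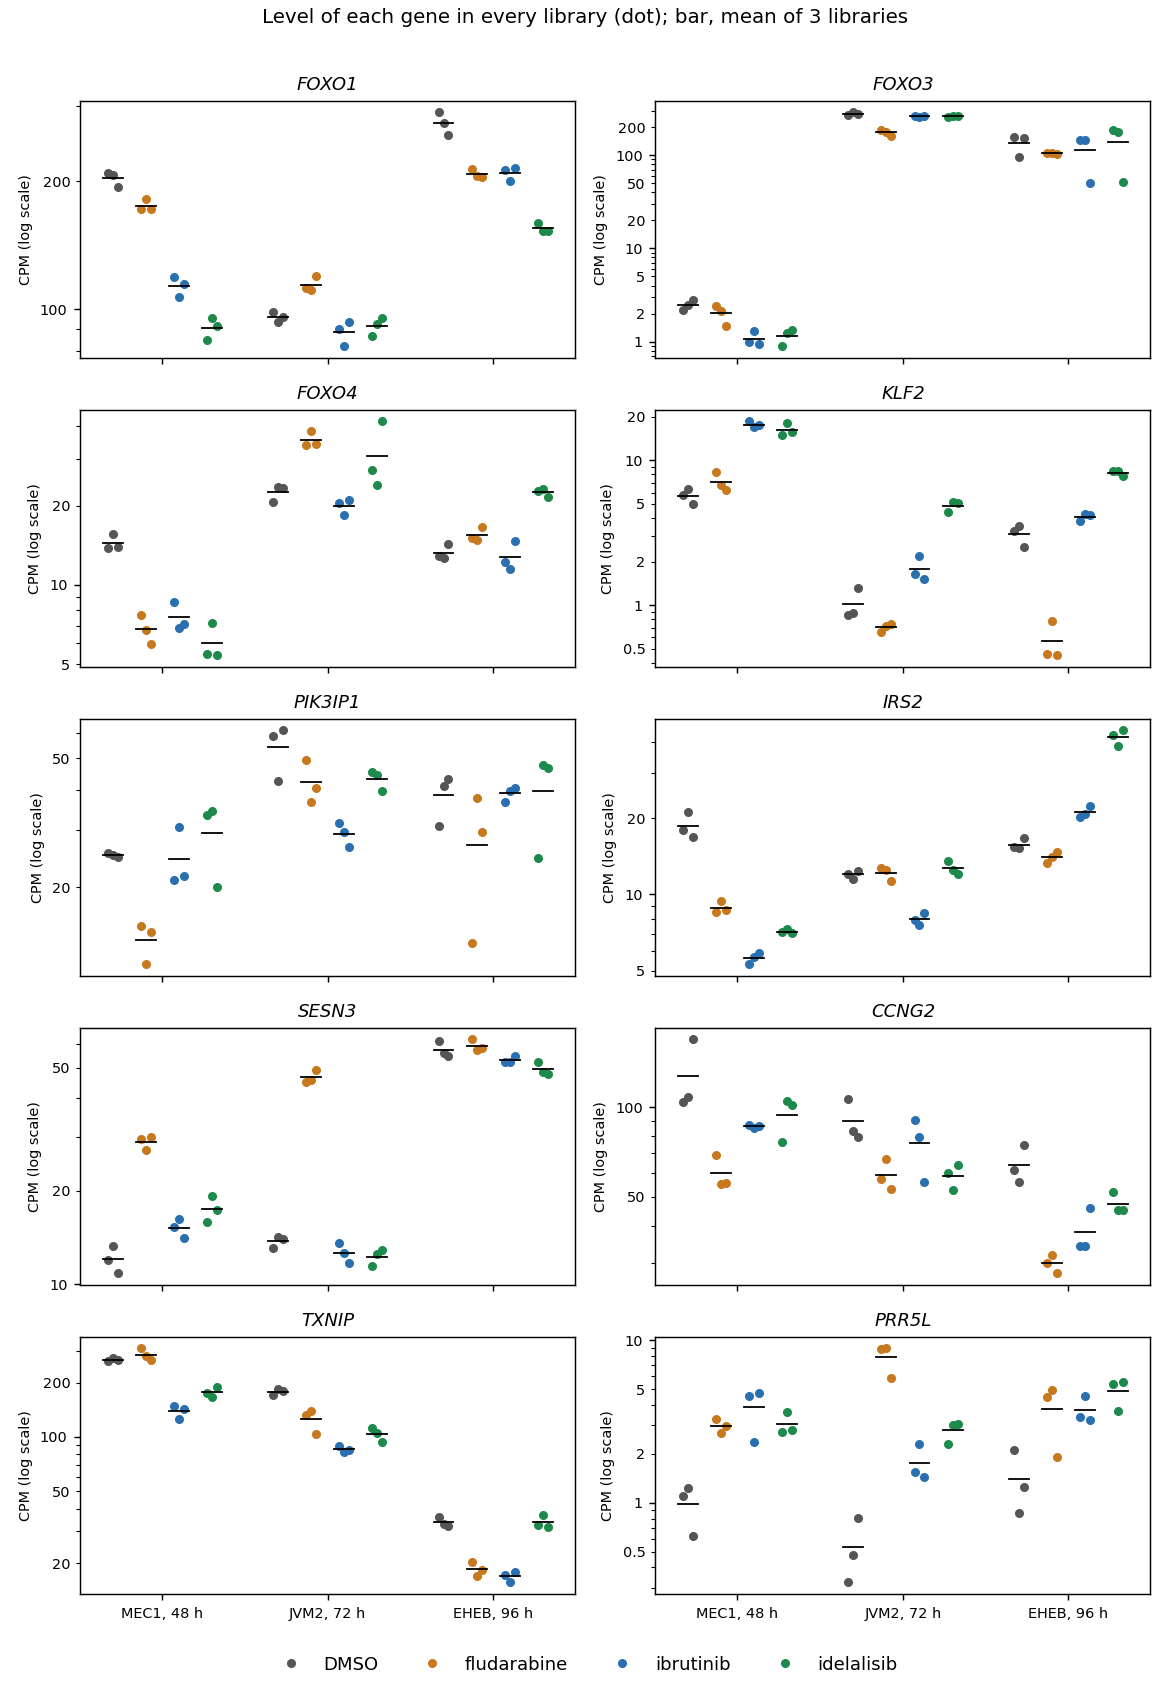
Level of each of the 10 genes in every library, in CPM on a logarithmic axis with its own range for each gene, by line and drug. Dots are libraries and bars are the means of 3 libraries. KLF2 and PRR5L stand higher with idelalisib than with DMSO in all 3 lines, and FOXO3 in MEC1 stays under 3 CPM in each of the 12 libraries.

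These comparisons asked whether the kinase inhibitors moved the 10 genes in another way than fludarabine did. Over the 10 genes and 3 lines (30 tests per drug), idelalisib against DMSO gave 10 higher and 10 lower calls, ibrutinib 7 higher and 12 lower, and fludarabine 7 higher and 12 lower. Of all genes tested, in the 3 lines together, 44.1%, 32.2% and 42.9% were called with these drugs in either direction. Line by line, in the order MEC1, JVM2 and EHEB, 55%, 44.2% and 33.3% of all genes were called with idelalisib, 47.6%, 29.4% and 19.7% with ibrutinib and 43.9%, 47.2% and 37.5% with fludarabine. Over the 3 lines, the higher calls alone were 21.4%, 15.5% and 21.2% and the lower calls 22.7%, 16.7% and 21.7%. The median log2 fold change of the 10 genes with idelalisib was −0.51 in MEC1, −0.08 in JVM2 and 0.03 in EHEB, where that of all genes was 0.08, 0.03 and 0.01. With ibrutinib the medians were −0.70, −0.15 and −0.08, and with fludarabine −0.25, −0.17 and −0.38. KLF2 and PRR5L rose with idelalisib in all lines, whereas the FOXO genes, IRS2 and TXNIP were called in some lines and not in others or in opposite directions. By the interaction of line and drug, the idelalisib effect differed between lines for 6 of the 10 genes and the ibrutinib effect for 6, where 45.7% and 33.6% of all genes differed. Within a line all 3 drugs were set against the same DMSO libraries. Without TMM, that is with scaling by library size alone, the median of all genes moved by −0.35 to 0.25 over the comparisons, and the fludarabine calls became 11 higher and 10 lower.

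**Figure D2:**
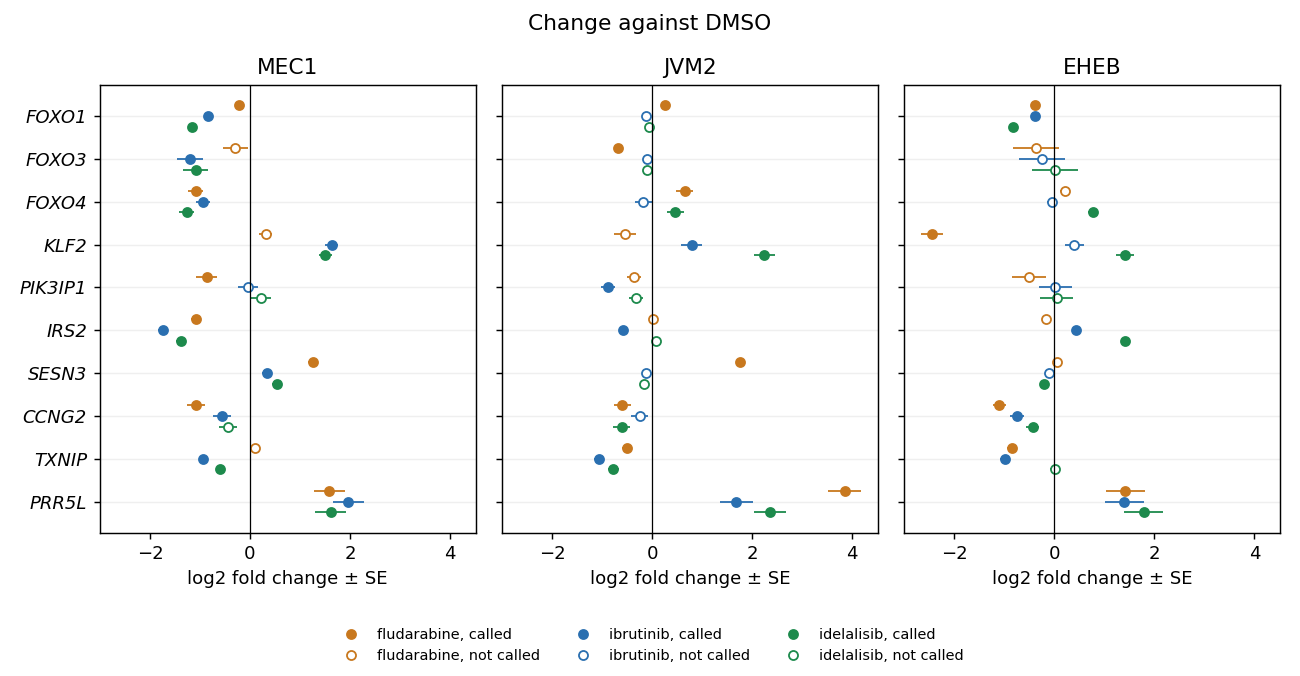
Log2 fold change against DMSO with its standard error for each gene, drug and line. Filled points passed an edgeR adjusted p under 0.05. PRR5L is filled on the right of 0 for all drugs and lines, and KLF2 is filled on the right for idelalisib in all 3 lines, while FOXO1, FOXO3, FOXO4 and IRS2 lie on the left in MEC1 with both kinase inhibitors.

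FOXO1, the main FOXO factor of B cells, fell with both kinase inhibitors in MEC1 and EHEB. In MEC1 it stood at 209, 207 and 194 CPM with DMSO, at 119, 107 and 115 with ibrutinib and at 84.8, 95.6 and 91.3 with idelalisib, and at 172, 181 and 172 with fludarabine. These 4 groups did not overlap, in the order DMSO, fludarabine, ibrutinib, idelalisib. The log2 fold change against DMSO was −1.17 ± 0.06 with idelalisib (adjusted p = 9.83e-08), −0.84 ± 0.06 with ibrutinib (adjusted p = 1.43e-06) and −0.22 ± 0.06 with fludarabine (adjusted p = 0.0156), the last of which became 0.03 under library size scaling and lost its call without the DMSO library at 209 CPM (adjusted p = 0.0528). In EHEB, FOXO1 was at 290, 274 and 257 CPM with DMSO, 213, 200 and 214 with ibrutinib, 160, 152 and 153 with idelalisib and 214, 206 and 205 with fludarabine. Ibrutinib and fludarabine overlapped there, and idelalisib lay below both. FOXO1 fell by 0.82 on the log2 scale with idelalisib, by 0.39 with ibrutinib and by 0.40 with fludarabine in this line. JVM2 gave no call with a kinase inhibitor (−0.07 and −0.12, adjusted p = 0.367 and 0.172), while fludarabine raised FOXO1 by 0.25 ± 0.06 (adjusted p = 0.00522). FOXO1 lies on chromosome 13, from 40555667 to 40666641 on the minus strand (GENCODE release 44, GRCh38), and is overlapped on its own strand by an unnamed long noncoding RNA.

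FOXO3, the family member best known in stress responses, fell in MEC1 from a level that was already very low. It stood at 2.16, 2.45 and 2.79 CPM with DMSO, 1.00, 1.29 and 0.936 with ibrutinib, 0.889, 1.23 and 1.34 with idelalisib and 2.44, 2.13 and 1.46 with fludarabine. Both kinase inhibitor groups lay below DMSO without overlap, on 30 to 111 counts per library. The fall was −1.20 ± 0.25 with ibrutinib (adjusted p = 0.00234) and −1.09 ± 0.25 with idelalisib (adjusted p = 0.00355), and fludarabine gave −0.29 ± 0.25 (adjusted p = 0.369). In JVM2 FOXO3 was abundant, at 272, 289 and 280 CPM with DMSO, and both inhibitors left values of 257 to 265 CPM, below DMSO without overlap but with no call. Fludarabine lowered it there to 186.2, 179 and 161 CPM, a log2 fold change of −0.68 ± 0.05 (adjusted p = 1.33e-06), although the joint fit of all 36 libraries no longer called it (adjusted p = 0.079). In EHEB single libraries stood far from their group: 184.1, 176 and 51.7 CPM with idelalisib, 147, 144.4 and 50.8 with ibrutinib and 158, 95.5 and 154 with DMSO, so that SE was 0.46 on the log2 scale and no drug gave a call. Without the library at 51.7 CPM, idelalisib against DMSO was 0.42 (adjusted p = 0.461).

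The FOXO3 transcript shares near-identical sequence with FOXO3B on chromosome 17, and reads of the pair can be split between them. FOXO3B held a median of 41.6% of the FOXO3 count in MEC1, 8.85% in JVM2 and 8.35% in EHEB. With the counts of both summed, the 2 calls with a kinase inhibitor in MEC1 stood. Because FOXO3 was so low in MEC1, the neighbours of the gene on chromosome 6 were read as well, chosen after its values were seen. As a share of the library total, without TMM, and with DMSO, SESN1 (108984309 to 109094846), a paralog of SESN3, was at 1.25 ± 0.02 CPM in MEC1, 26.7 ± 1.28 in JVM2 and 46.97 ± 2.93 in EHEB (SD, n = 3). ARMC2, between FOXO3 and SESN1, was at 0.0215 CPM in MEC1, 0.362 in JVM2 and 0.968 in EHEB. AFG1L, just before FOXO3, was at 4.63, 8.74 and 9.26 CPM, and CEP57L1, just after SESN1, at 9.11, 8.19 and 12.3 CPM. Farther out, OSTM1 (10.7, 22.7 and 46.1 CPM) and CD164 (113, 211 and 405 CPM) were also lowest in MEC1.

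**Figure D3:**
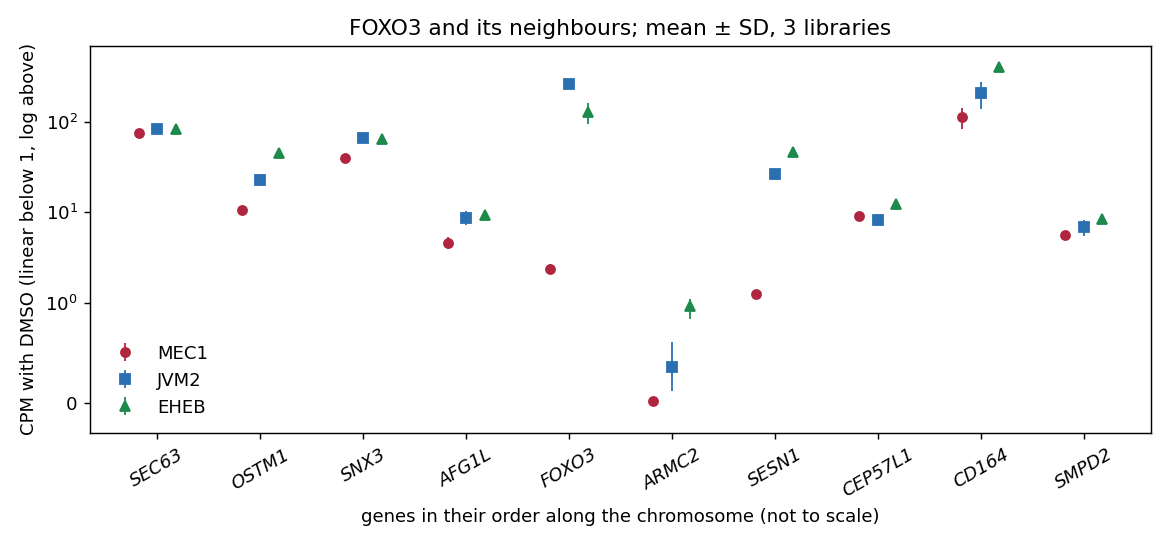
FOXO3 (108559835 to 108684774 on chromosome 6) and annotated protein-coding genes on either side, in their order along the chromosome and not to scale, with the mean CPM (of the library total) ± SD of 3 DMSO libraries per line. The axis is linear below 1 CPM and logarithmic above. FOXO3 and SESN1 are lower in MEC1 than in both other lines by more than the spread, and so are OSTM1, SNX3, AFG1L and ARMC2. CEP57L1 lies between 8.19 and 12.3 CPM in all 3 and is the only gene shown that is not lowest in MEC1.

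FOXO4, the X-linked family member that carries the FOXO motif in its own promoter window, moved in opposite directions in MEC1 and EHEB. In MEC1 it was at 13.9, 15.6 and 13.9 CPM with DMSO and fell with each drug, to 5.45, 7.14 and 5.40 CPM with idelalisib, 8.60, 6.86 and 7.14 with ibrutinib and 7.71, 6.73 and 5.96 with fludarabine. The drug groups overlapped each other and none overlapped DMSO, and the log2 fold changes were −1.27 ± 0.15, −0.94 ± 0.14 and −1.09 ± 0.15. In EHEB it rose with idelalisib from 12.9, 12.7 and 14.3 CPM to 22.8, 23.2 and 21.6 CPM (0.76 ± 0.10, adjusted p = 0.000158). Ibrutinib gave no call in EHEB (−0.05 ± 0.10) and neither did fludarabine (0.22 ± 0.10, adjusted p = 0.112), although fludarabine was called under library size scaling (0.33, adjusted p = 0.0165) and the stricter filter (adjusted p = 0.0429). Fludarabine raised FOXO4 in JVM2, from 20.7, 23.5 and 23.3 CPM to 33.9, 38.2 and 34.1 CPM (0.65 ± 0.17, adjusted p = 0.00883). The idelalisib call in JVM2 (0.46 ± 0.17, adjusted p = 0.0491) included a library at 41.8 CPM beside 27.2 and 23.9 CPM, and without that library it was 0.19 (adjusted p = 0.149). It was also lost without any 1 of the DMSO libraries (adjusted p of 0.0843 to 0.142).

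PIK3IP1 encodes a membrane protein that binds the PI3K catalytic subunit and inhibits it. It was not called with idelalisib in any line, where its log2 fold changes were 0.22 ± 0.20, −0.33 ± 0.14 and 0.05 ± 0.33 (MEC1, JVM2 and EHEB). Without the DMSO library at 42.6 CPM the JVM2 value was −0.48 and called lower (adjusted p = 0.0114). Ibrutinib lowered it in JVM2, from 58.7, 42.6 and 61.1 CPM to 31.5, 29.7 and 26.7 CPM (−0.88 ± 0.14, adjusted p = 0.00103). Fludarabine lowered it in MEC1, from 25.5, 25.3 and 24.8 CPM to 15.2, 11.6 and 14.6 CPM (−0.87 ± 0.21, adjusted p = 0.00537). Single libraries again stood apart, at 20.1 CPM beside 33.5 and 34.5 with idelalisib in MEC1, at 24.6 beside 47.8 and 46.9 with idelalisib in EHEB, and at 13.5 beside 37.8 and 29.7 with fludarabine in EHEB.

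IRS2, the adaptor that couples insulin and cytokine receptors to PI3K, moved in opposite directions in MEC1 and EHEB. With idelalisib it fell in MEC1 from 17.9995, 21.2 and 16.9 CPM to 7.08, 7.29 and 7.05 CPM, and in EHEB it rose from 15.4, 15.2 and 16.6 CPM to 42.6, 38.4 and 44.4 CPM. In JVM2 the values with idelalisib, 13.5, 12.5 and 12.1 CPM, overlapped those with DMSO, 12.05, 11.505 and 12.4 CPM. The log2 fold changes were −1.39 ± 0.10 (adjusted p = 6.87e-07), 1.41 ± 0.08 (adjusted p = 3.39e-07) and 0.08 ± 0.08 (adjusted p = 0.426). Ibrutinib gave lower values than idelalisib in each line, of 5.30, 5.69 and 5.85 CPM in MEC1, 7.90, 7.57 and 8.49 CPM in JVM2 and 20.3, 20.8 and 22.3 CPM in EHEB. Against DMSO it lowered IRS2 by −1.73 ± 0.10 in MEC1 and −0.59 ± 0.08 in JVM2 and raised it by 0.43 ± 0.08 in EHEB. With fludarabine IRS2 was called in MEC1 (8.50, 9.40 and 8.67 CPM, −1.08 ± 0.10, adjusted p = 7.97e-06), with 0.02 ± 0.08 in JVM2 and −0.16 ± 0.08 in EHEB. Library size scaling gave a higher call in JVM2 (0.22, adjusted p = 0.0358).

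PRR5L encodes a partner of mTOR complex 2, the kinase complex that phosphorylates AKT, and it was the gene called higher with every drug in every line. It is expressed at a low level: the 9 DMSO libraries held 11 to 85 counts. In MEC1 it rose from 1.09, 1.23 and 0.620 CPM to 2.73, 3.60 and 2.79 CPM with idelalisib, 4.52, 2.36 and 4.74 with ibrutinib and 3.28, 2.70 and 2.98 with fludarabine. The 3 drug groups overlapped in this line and lay above DMSO. In JVM2 it stood at 0.323, 0.478 and 0.806 CPM with DMSO, 2.31, 3.02 and 3.07 with idelalisib, 1.55, 2.31 and 1.43 with ibrutinib and 8.87, 8.92 and 5.83 with fludarabine. Fludarabine thus gave the highest level here, 14.4-fold above DMSO (log2 fold change 3.85 ± 0.33, adjusted p = 3.57e-06), against 5.13-fold with idelalisib and 3.21-fold with ibrutinib. In EHEB the log2 fold changes were 1.78 ± 0.39 with idelalisib (adjusted p = 0.0047), 1.39 ± 0.39 with ibrutinib (adjusted p = 0.0278) and 1.42 ± 0.39 with fludarabine (adjusted p = 0.014). A fludarabine library at 1.91 CPM overlapped the DMSO libraries, which held 2.102, 0.870 and 1.25 CPM. Leaving out 1 library ended the ibrutinib call in EHEB (adjusted p up to 0.0969, without the DMSO library at 0.870 CPM) and the fludarabine call (adjusted p up to 0.0595, without the fludarabine library at 4.93 CPM).

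KLF2, a FOXO1 target that controls lymphocyte trafficking and quiescence, rose with idelalisib in all 3 lines. In MEC1 it went from 5.74, 6.35 and 5.02 CPM with DMSO to 14.97, 18.1 and 15.7 CPM, in JVM2 from 0.852, 0.885 and 1.32 to 4.41, 5.14 and 5.04 CPM, and in EHEB from 3.26, 3.53 and 2.51 to 8.49, 8.47 and 7.78 CPM. No idelalisib library overlapped DMSO. The rise was 2.85-fold in MEC1 (log2 fold change 1.51 ± 0.13, adjusted p = 2.53e-06), 4.75-fold in JVM2 (2.25 ± 0.22, adjusted p = 1.17e-05) and 2.66-fold in EHEB (1.41 ± 0.19, adjusted p = 0.000164). With ibrutinib KLF2 reached 18.6, 17.0 and 17.4 CPM in MEC1 and 1.64, 2.19 and 1.51 CPM in JVM2, both called (1.63 ± 0.13 and 0.79 ± 0.21), and 3.84, 4.24 and 4.18 CPM in EHEB, which was not (0.40 ± 0.19, adjusted p = 0.168). The JVM2 call with ibrutinib was lost when only the 6 libraries compared were fitted (adjusted p = 0.0668) and when either of 2 DMSO libraries or an ibrutinib library was left out (adjusted p of 0.0604 to 0.0685). With fludarabine KLF2 fell in EHEB to 0.464, 0.777 and 0.450 CPM (−2.45 ± 0.22, adjusted p = 5.41e-06), with −0.54 ± 0.22 in JVM2 and 0.32 ± 0.13 in MEC1, neither called. The fludarabine libraries held only 13, 26 and 17 KLF2 counts in EHEB and 29, 33 and 32 in JVM2. Comparisons with fludarabine in these 2 lines therefore rest on few counts. The MEC1 value was called higher under library size scaling (0.57, adjusted p = 0.00824), the stricter filter (adjusted p = 0.0185), counts divided by 8/3 (adjusted p = 0.049) and without the fludarabine library at 6.26 CPM (adjusted p = 0.0453), and the JVM2 value was called lower in the joint fit (adjusted p = 0.0277).

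SESN3, a FOXO target whose protein restrains mTOR complex 1, rose with fludarabine rather than with the inhibitors in JVM2. There it stood at 13.1, 14.2 and 14.0 CPM with DMSO, 44.9, 45.8 and 49.4 with fludarabine, 13.5, 12.6 and 11.7 with ibrutinib and 11.4, 12.5 and 12.8 with idelalisib. The fludarabine rise was 3.40-fold (1.76 ± 0.08, adjusted p = 1.82e-08) and neither inhibitor was called. In MEC1 it rose with all 3 drugs, from 11.9, 13.3 and 10.8 CPM to 29.4, 27.1 and 29.9 with fludarabine (1.26 ± 0.10), 15.3, 16.3 and 14.1 with ibrutinib (0.34 ± 0.10) and 15.9, 19.3 and 17.4 with idelalisib (0.54 ± 0.10). The ibrutinib call in MEC1 was lost without a filter on low counts (adjusted p = 0.058) and without any of 3 libraries (adjusted p up to 0.0747, without the DMSO library at 10.8 CPM). EHEB held the highest levels, 54.6 to 61.0 CPM with DMSO, and fludarabine left 57.2 to 61.9 CPM. Idelalisib gave a small fall there (−0.21 ± 0.06, adjusted p = 0.0265) that ended under library size scaling (adjusted p = 0.18) and without any of 4 libraries (adjusted p up to 0.137, without the DMSO library at 61.0 CPM).

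CCNG2, an unconventional cyclin that holds back the cell cycle and a FOXO target, was not called higher against DMSO with any drug. Fludarabine lowered it in each line: in EHEB from 61.6, 56.2 and 74.5 CPM to 30.03, 31.9 and 27.6 CPM (−1.10 ± 0.13, adjusted p = 6.49e-05), in MEC1 by −1.08 ± 0.18 and in JVM2 by −0.60 ± 0.17. Under library size scaling the JVM2 value was −0.41 and no longer called (adjusted p = 0.0705). In MEC1 a DMSO library at 169 CPM stood above the others at 104 and 108 CPM. Idelalisib lowered CCNG2 in JVM2, to 59.9, 52.7 and 63.9 CPM from 107, 83.1 and 79.5 (−0.61 ± 0.17, adjusted p = 0.0146), and in EHEB, to 51.9, 45.3 and 45.02 CPM (−0.44 ± 0.13, adjusted p = 0.0265), with −0.43 ± 0.18 in MEC1 (adjusted p = 0.0631). Under library size scaling the EHEB call was lost (−0.34, adjusted p = 0.0527) and MEC1 was called (−0.52, adjusted p = 0.0316), as it was by DESeq2 (adjusted p = 0.0403). The joint fit also lost EHEB (adjusted p = 0.0749) and called MEC1 (adjusted p = 0.0242), and MEC1 was called without either of the DMSO libraries at 104 and 108 CPM (adjusted p = 0.0292 and 0.0413). Ibrutinib lowered it in EHEB, to 34.2, 34.3 and 45.7 CPM (−0.75 ± 0.13, adjusted p = 0.00258), and in MEC1 (−0.56 ± 0.18, adjusted p = 0.0247). The MEC1 call with ibrutinib was lost without any 1 of the ibrutinib libraries (adjusted p up to 0.0669), and its value was −0.30 without the DMSO library at 169 CPM (adjusted p = 0.0997), and that with idelalisib in EHEB was −0.30 without the DMSO library at 74.5 CPM (adjusted p = 0.119) and was lost without the DMSO library at 61.6 CPM or the idelalisib libraries at 45.3 and 45.02 CPM (adjusted p of 0.0547 to 0.0965). In JVM2, leaving out the DMSO library at 107 CPM gave adjusted p = 0.0593 with idelalisib and 0.0622 with fludarabine, and leaving out the fludarabine library at 53.3 CPM gave 0.0575 with fludarabine.

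TXNIP, an arrestin-like protein that limits glucose uptake and is raised by FOXO and by the glucose sensor MondoA, fell with ibrutinib in all 3 lines. It went from 263.1, 273 and 266 CPM to 148, 126 and 143.6 CPM in MEC1, from 170, 183.7 and 180 to 89.4, 82.1 and 84.2 CPM in JVM2, and from 35.9, 33.2 and 32.0 to 17.2, 15.7 and 17.99 CPM in EHEB. No ibrutinib library overlapped DMSO, and the log2 fold changes were −0.94 ± 0.08, −1.06 ± 0.10 and −0.99 ± 0.09. Idelalisib lowered it in MEC1 (176, 167 and 188 CPM, −0.59 ± 0.08) and in JVM2 (113, 106 and 93.3 CPM, −0.78 ± 0.10), but in EHEB its values of 32.6, 36.98 and 31.7 CPM overlapped DMSO (0.00 ± 0.09, adjusted p = 0.985). Fludarabine lowered it in EHEB, to 20.3, 17.1 and 18.4 CPM (−0.86 ± 0.09), and in JVM2, to 132, 140 and 103 CPM (−0.51 ± 0.10), and gave 0.09 ± 0.08 in MEC1. The MEC1 value was 0.34 and called higher under library size scaling (adjusted p = 0.00333), and 0.19 under the stricter filter (adjusted p = 0.0312).

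Read against fludarabine in place of DMSO, idelalisib gave 10 higher and 10 lower calls of 30 and ibrutinib 7 higher and 12 lower, where 46.7% and 42.4% of all genes tested were called in either direction (22.6% and 21.2% higher, 24.1% and 21.2% lower; by line 56.2%, 41.1% and 42.7% with idelalisib, and 51.4%, 42.7% and 33.3% with ibrutinib). Against fludarabine, KLF2 was higher with both inhibitors in MEC1, JVM2 and EHEB, by 1.19 ± 0.13, 2.79 ± 0.22 and 3.86 ± 0.22 with idelalisib and by 1.31 ± 0.13, 1.33 ± 0.22 and 2.85 ± 0.22 with ibrutinib. SESN3 went the other way: it was lower with idelalisib in all 3 lines (−0.72 ± 0.10, −1.93 ± 0.08 and −0.25 ± 0.06) and with ibrutinib in MEC1 and JVM2 (−0.92 ± 0.10 and −1.89 ± 0.08). PRR5L was lower than with fludarabine in JVM2 (−1.49 ± 0.29 with idelalisib and −2.17 ± 0.30 with ibrutinib) and was not called in MEC1 or EHEB. FOXO1 was lower with idelalisib in each line (−0.95, −0.32 and −0.43) and with ibrutinib in MEC1 and JVM2 (−0.62 and −0.37). FOXO3 was lower in MEC1 and higher in JVM2 with both inhibitors, but the joint fit of all 36 libraries left none of these 4 calls (adjusted p of 0.0568 to 0.146), and the idelalisib call in MEC1 was also lost without any of 3 libraries, with FOXO3 at 2.44 and 2.13 CPM (fludarabine) and 0.889 CPM (idelalisib). IRS2 was higher in EHEB with both (1.57 ± 0.08 and 0.59 ± 0.08), lower in MEC1 (−0.31 ± 0.10 and −0.66 ± 0.10), and in JVM2 lower with ibrutinib (−0.61 ± 0.08). The idelalisib call for IRS2 in MEC1 ended without the fludarabine library at 9.40 CPM (adjusted p = 0.0736). PIK3IP1 was higher in MEC1 with idelalisib (1.09 ± 0.21) and ibrutinib (0.83 ± 0.21), and lower in JVM2 with ibrutinib (−0.52 ± 0.14), the last lost in the joint fit (adjusted p = 0.136) and without the fludarabine library at 49.3 CPM or the ibrutinib library at 26.7 CPM.

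**Figure D4:**
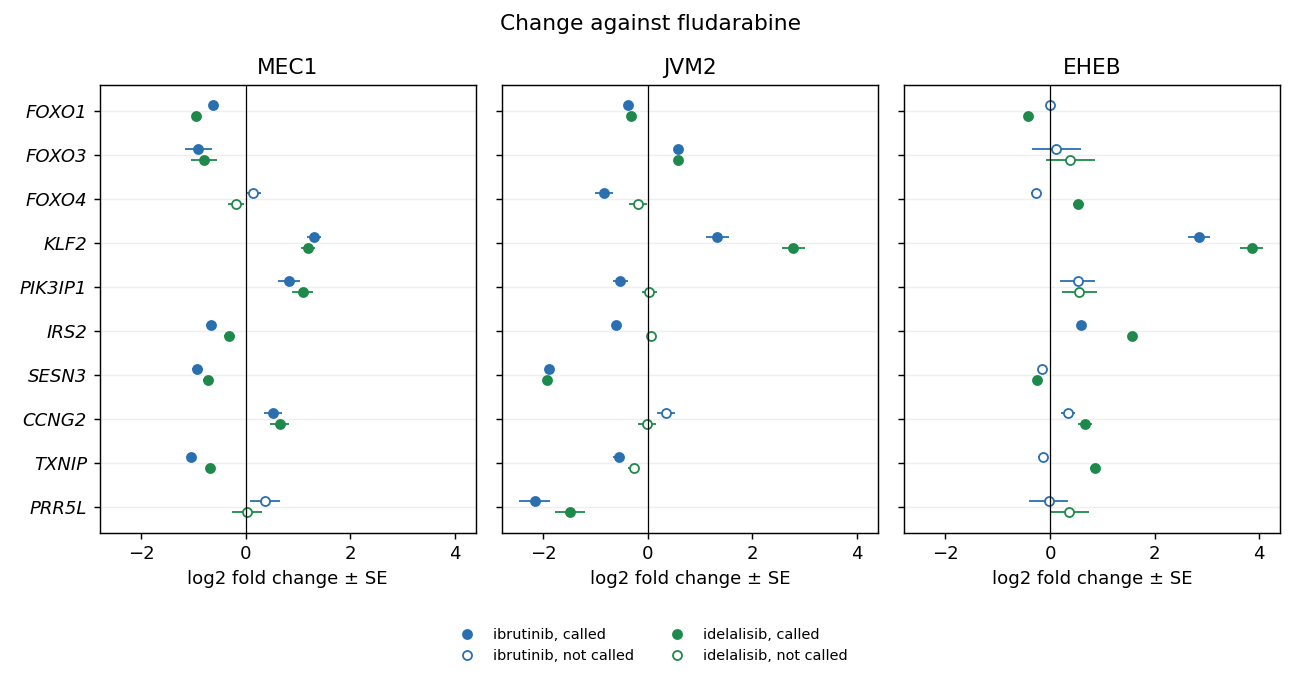
Log2 fold change of idelalisib and ibrutinib against fludarabine, with its standard error, for each gene and line. Filled points passed an edgeR adjusted p under 0.05. KLF2 lies to the right in all 3 lines and reaches 3.86 with idelalisib in EHEB, and SESN3 lies to the left in JVM2, at −1.93 and −1.89.

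The remaining calls against fludarabine concerned FOXO4, CCNG2 and TXNIP. FOXO4 was higher with idelalisib in EHEB (0.54 ± 0.10) and lower with ibrutinib in JVM2 (−0.83 ± 0.17). CCNG2 was higher with idelalisib in MEC1 (0.65 ± 0.18) and EHEB (0.67 ± 0.13) and with ibrutinib in MEC1 (0.52 ± 0.18), and both MEC1 calls ended under library size scaling (adjusted p = 0.177 and 0.141). TXNIP was lower in MEC1 with idelalisib (−0.69 ± 0.08) and ibrutinib (−1.04 ± 0.08) and in JVM2 with ibrutinib (−0.55 ± 0.10), and higher in EHEB with idelalisib (0.86 ± 0.09).

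Between the 2 inhibitors, whose libraries share a number series, 10 of 30 comparisons were higher with idelalisib and 2 lower, where 7% and 9.66% of all genes tested were (16.7% in either direction, and 15.4%, 18.7% and 15.9% in the 3 lines). IRS2 was higher with idelalisib in all 3 lines, by 0.35 ± 0.10 in MEC1 (adjusted p = 0.0406), 0.67 ± 0.08 in JVM2 (adjusted p = 0.000243) and 0.98 ± 0.08 in EHEB (adjusted p = 1.93e-05). The MEC1 call was lost by limma-voom (adjusted p = 0.0818), under library size scaling (adjusted p = 0.304) and without any 1 of the 6 libraries. KLF2 was higher with idelalisib in JVM2 (1.46 ± 0.21, 2.74-fold) and in EHEB (1.01 ± 0.18, 2.02-fold), and differed by −0.12 ± 0.13 in MEC1 (adjusted p = 0.626). TXNIP was higher in EHEB (0.99 ± 0.09) and MEC1 (0.35 ± 0.08), the latter lost under library size scaling (adjusted p = 0.126) and without the idelalisib library at 188 CPM (adjusted p = 0.0698). FOXO4 was higher in EHEB (0.82 ± 0.10) and JVM2 (0.64 ± 0.17), and PIK3IP1 in JVM2 (0.56 ± 0.14). Both JVM2 calls were lost in some fits, FOXO4 when only the 6 libraries compared were fitted (adjusted p = 0.0854) and PIK3IP1 in the joint fit (adjusted p = 0.171). Leaving out any 1 ibrutinib library ended the FOXO4 call (adjusted p up to 0.0917), and leaving out any of 4 libraries the PIK3IP1 call (adjusted p up to 0.079). FOXO1 made up the 2 lower calls, in MEC1 (−0.33 ± 0.06) and EHEB (−0.43 ± 0.05). SESN3, CCNG2, PRR5L and FOXO3 gave no call between the inhibitors in any line. For PRR5L the difference was −0.35 ± 0.29, 0.68 ± 0.30 and 0.39 ± 0.37.

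Other genes of the pathway, from lists written out by name, showed which parts moved beside the 10. Of 13 PI3K subunits and adaptors, idelalisib raised 2 and lowered 9 in MEC1, raised 7 and lowered 3 in JVM2, and raised 5 and lowered 4 in EHEB, where 55%, 44.2% and 33.3% of all genes were called in these lines. PIK3CD, the target of idelalisib, rose with it by 0.96 ± 0.06 in EHEB and 0.25 ± 0.06 in JVM2, with 0.00 ± 0.11 in MEC1. Ibrutinib raised PIK3CD in EHEB too (0.55 ± 0.06, adjusted p = 0.000131), with 0.27 ± 0.11 in MEC1 and 0.15 ± 0.06 in JVM2, neither called. BTK, the target of ibrutinib, was not called with ibrutinib in any line (0.17, 0.12 and 0.10). Idelalisib lowered BTK in JVM2 (−0.22, adjusted p = 0.019) and EHEB (−0.31, adjusted p = 0.0185). Both calls were lost under library size scaling (adjusted p = 0.203 and 0.118).

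Among 7 lipid and AKT phosphatases, 6, 4 and 3 were lowered by idelalisib in MEC1, JVM2 and EHEB, and 1, 3 and 1 raised, where 55%, 44.2% and 33.3% of all genes were called. PHLPP1, which removes the activating phosphate from AKT, fell with both inhibitors in each line, with idelalisib by 1.54, 0.72 and 0.69 on the log2 scale and with ibrutinib by 1.36, 0.44 and 0.66. With fludarabine PHLPP1 was lower too (−0.44 ± 0.09, −0.65 ± 0.09 and −0.70 ± 0.11), the MEC1 call being lost under library size scaling (adjusted p = 0.135). SGK1, a kinase close to AKT that also phosphorylates FOXO proteins, rose with idelalisib by 3.31 ± 0.21, 1.67 ± 0.22 and 1.51 ± 0.24 and with fludarabine by 3.54 ± 0.21, 3.49 ± 0.23 and 1.79 ± 0.24, and with ibrutinib in MEC1 (2.56 ± 0.20) and EHEB (1.08 ± 0.24). SGK1 started from low DMSO means of 1.28, 0.608 and 2.26 CPM in MEC1, JVM2 and EHEB. Its means with idelalisib were 12.7, 1.95 and 6.46 CPM. The AKT and SGK list of 6 gave 2 higher calls in each line with idelalisib, and 3 lower calls in MEC1 alone, with the same 55%, 44.2% and 33.3% of all genes called.

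Of 11 genes of the mTOR complexes and TSC (10 tested in EHEB), idelalisib raised 2, 7 and 5 and lowered 7, 2 and 1 in MEC1, JVM2 and EHEB, against 55%, 44.2% and 33.3% of all genes called. RICTOR, the defining subunit of mTOR complex 2 and a partner of PRR5L, rose with idelalisib in each line, by 0.69 ± 0.08, 0.21 ± 0.06 and 0.54 ± 0.06. Ibrutinib raised RICTOR in MEC1 (0.41). In JVM2 RICTOR fell with ibrutinib (−0.20) and fludarabine (−0.28), both calls being lost under library size scaling (adjusted p = 0.171 and 0.342). TBC1D7 fell with idelalisib in each line (−0.51, −0.45 and −0.52). RPTOR fell with it in MEC1 (−0.42) and rose in JVM2 (0.56) and EHEB (0.20). Of 20 other FOXO target genes, 19 were tested in each line. Idelalisib raised 2, 4 and 8 of them and lowered 8, 4 and 2, beside 55%, 44.2% and 33.3% of all genes called, which in MEC1 and JVM2 is near the share of the list. Ibrutinib raised 3, 2 and 1 and lowered 9, 9 and 3, beside 47.6%, 29.4% and 19.7% of all genes. Fludarabine raised 3, 8 and 7 and lowered 5, 2 and 5, beside 43.9%, 47.2% and 37.5% of all genes. More of these targets thus rose with fludarabine than with idelalisib in JVM2, and nearly as many in EHEB. FBXO32, a ubiquitin ligase subunit and FOXO target, fell with idelalisib in MEC1 (−1.15 ± 0.15) and rose in JVM2 (0.23 ± 0.08) and EHEB (0.62 ± 0.16). CDKN1B, which encodes the cell cycle inhibitor p27, fell in MEC1 and JVM2 with each drug. In EHEB it rose with idelalisib (0.27 ± 0.05, adjusted p = 0.00135) and fell with ibrutinib (−0.27 ± 0.05) and fludarabine (−1.04 ± 0.05).

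Paralogs of the 10 genes were read next. Of 14 paralogs 13 were tested, and idelalisib raised 1, 2 and 3 and lowered 9, 4 and 3 in MEC1, JVM2 and EHEB, beside 55%, 44.2% and 33.3% of all genes called. SESN1 rose with fludarabine in each line (1.49 ± 0.23, 1.88 ± 0.07 and 1.35 ± 0.06), and fell with idelalisib in JVM2 (−1.59 ± 0.08) and EHEB (−0.71 ± 0.06). SESN2 fell with both inhibitors in MEC1 (−2.39 ± 0.10 and −2.24 ± 0.10) and JVM2 (−0.32 ± 0.06 and −0.19 ± 0.06) and with idelalisib in EHEB (−0.61 ± 0.08), the JVM2 call with ibrutinib being lost under library size scaling (adjusted p = 0.146). It rose with fludarabine in JVM2 (0.95 ± 0.06) and EHEB (1.40 ± 0.08). CCNG1 fell with both inhibitors in each line, with idelalisib by 0.46, 0.86 and 0.34 on the log2 scale. Of 3 genes in the list of MondoA and MLX, 2 were tested: MLX fell with idelalisib in JVM2 and EHEB (−0.41 in each) and MLXIP, which encodes MondoA, fell with it in MEC1 (−0.67). With ibrutinib, MLX fell in JVM2 (−0.39) and MLXIP in MEC1 (−0.56). Neither was called with ibrutinib in EHEB (−0.20 and −0.24), where TXNIP fell. A link of these factors to TXNIP was not tested.

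**Figure D5:**
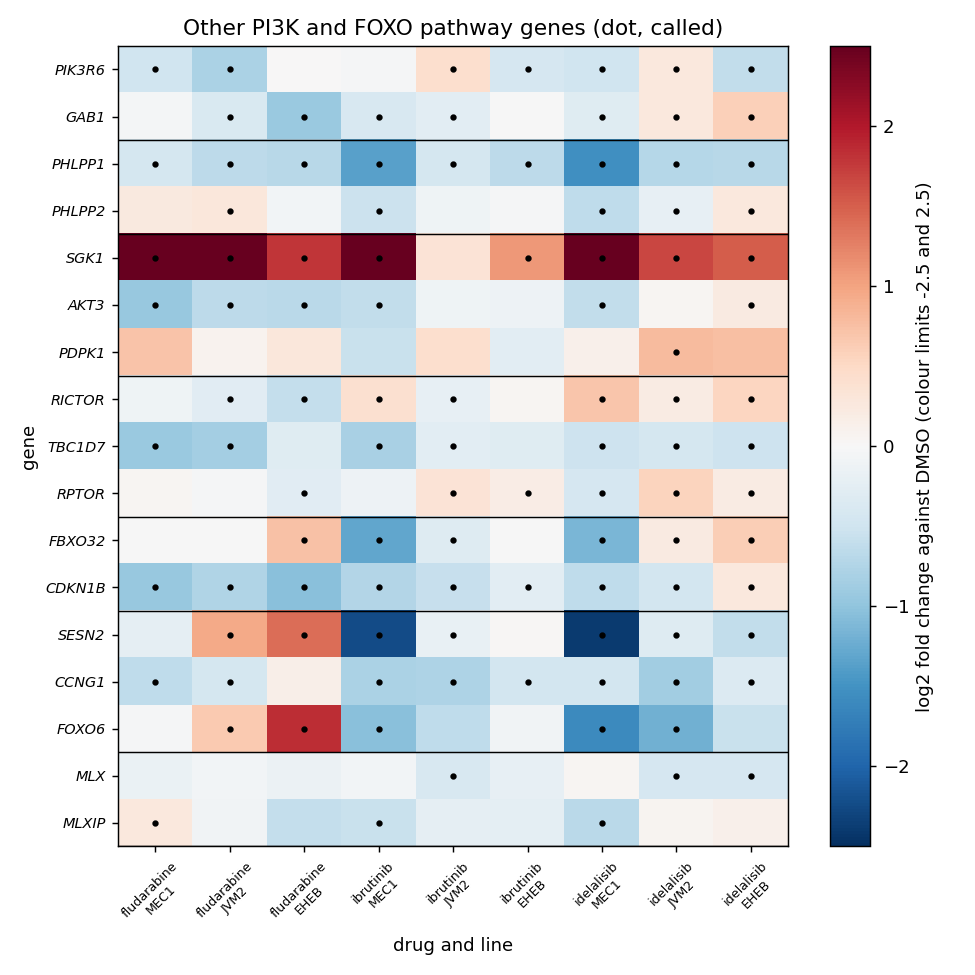
Log2 fold change against DMSO of named genes of the pathway lists, by drug and line, with colour limits of −2.5 and 2.5 and a dot where the edgeR adjusted p was under 0.05. Horizontal lines separate the lists. PHLPP1 is blue throughout, and SGK1 is red with fludarabine and idelalisib in all 3 lines.

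Across the 36 libraries, with log2 CPM centred within each line, the genes most like each of the 10 were compared over 11926 genes as a description; the libraries share treatments and the number series. KLF2 went most closely with ARL10 (Pearson r = 0.968) and RASGRP3 (0.958), FOXO1 with DIAPH1 (0.926) and ARF6 (0.913), and SESN3 with GBP3 (0.917) and IRF1 (0.902). IRS2 was closest to JMY (0.888) and PAN2 (0.864), and PRR5L to TRIM55 (0.888) and PLEKHG1 (0.848). CCNG2 followed MZT2B (0.844) and ZNRF2 (0.837), TXNIP followed PCYOX1 (0.831) and ZNRF2P1 (0.826), and FOXO4 followed TNKS2 (0.815) and PPFIA1 (0.795). The lowest maxima belonged to PIK3IP1, with ACP6 (0.747) and COX18 (0.698), and FOXO3, with ASAP1 (0.737) and HDAC9 (0.699). Among the 10 themselves the highest value was that of FOXO4 with IRS2 (0.738) and the lowest that of CCNG2 with PRR5L (−0.570).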

How the data were processed

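The deposited table holds expected counts per gene symbol, made by the authors from ribosomal RNA-depleted total RNA, with Trimmomatic, HISAT2 2.1 on GRCh38 and StringTie 1.3.4 with an Ensembl annotation; the submitters' processing notes also name edgeR 3.22.5. Strand and the Ensembl release were not given in the sources used here. Counts of 3, 6, 8 and 11 are more frequent than their neighbours, so 1 fragment may be worth more than 1 count. An entry with a blank symbol (0.00384% of counts) was left out.

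Here the counts of the 12 libraries of a line were fitted together in edgeR 4.0.16 (R 4.3.3; TMM, filterByExpr, quasi-likelihood F-test), with Benjamini-Hochberg adjustment over all genes tested and calls at an adjusted p under 0.05. CPM values are TMM-scaled within a line, and those with DMSO compared between lines come from a joint fit of all 36 libraries. Levels of the FOXO3 neighbours and of the cell type markers are shares of the library total. Drug effects were compared between lines by the line by treatment interaction (an F-test over the 3 lines, 18 libraries of DMSO and 1 drug). The code was tested on simulated data. Alternatives were DESeq2 1.42.0, limma-voom (limma 3.58.1), other scalings and filters, other sets of libraries in the fit, each library left out in turn and, chosen after seeing the data, counts divided by 8/3 and FOXO3 summed with FOXO3B. Depth per library was 26590705 to 53538925 counts.

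The 10 genes and the pathway lists were chosen with earlier results of these data known. All 10 genes are named, with at most 3 genes of each list (those called with idelalisib in the most lines, then by median size of change), PIK3CD and BTK, and the 2 genes most correlated with each. Some genes of the lists count in the totals but are not reported here by name. SESN1, ARMC2, AFG1L, CEP57L1, OSTM1, CD164, SNX3, SEC63 and SMPD2 were chosen after the FOXO3 values were seen. Positions and exon lengths are from GENCODE release 44.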

Additional observations from a re-analysis of the deposited data

Results flagged for a closer look

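The effect of a kinase inhibitor against DMSO differed between the lines for 12 gene and drug pairs, by an edgeR test of the line by treatment interaction at an adjusted p under 0.05. With idelalisib, where 45.7% of all genes differed, these were 6 of the 10 genes. IRS2 had an adjusted p of 6.83e-10, and its log2 fold changes were −1.39, 0.08 and 1.41 (MEC1, JVM2 and EHEB, and in this order for each gene). FOXO1 had 1.12e-07 (−1.17, −0.07 and −0.82), FOXO4 had 6.05e-06 (−1.27, 0.46 and 0.76) and TXNIP had 5.00e-05 (−0.59, −0.78 and 0.00). SESN3 had 0.00042 (0.54, −0.16 and −0.21) and KLF2 had 0.0148 (1.51, 2.25 and 1.41), which rose to 0.0582 and 0.062 without either of 2 JVM2 DMSO libraries, those with KLF2 at 0.852 and 0.885 CPM.

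With ibrutinib, where 33.6% of all genes differed, IRS2 had an adjusted p of 6.63e-08 (−1.73, −0.59 and 0.43) and FOXO1 had 5.70e-05 (−0.84, −0.12 and −0.39). FOXO4 had 0.000742 (−0.94, −0.18 and −0.05) and KLF2 had 0.00383 (1.63, 0.79 and 0.40). PIK3IP1 had 0.00761 (−0.04, −0.88 and 0.02), and 0.105 in the joint fit of all 36 libraries. SESN3 had 0.0103 (0.34, −0.13 and −0.11), and 0.0558 without the MEC1 DMSO library with SESN3 at 10.8 CPM. FOXO3, CCNG2 and PRR5L did not pass this test with either drug (adjusted p of 0.152 to 0.887). FOXO3 did pass it without the EHEB idelalisib library at 51.7 CPM (adjusted p = 0.000862) and, with ibrutinib, without the EHEB library at 50.8 CPM (adjusted p = 0.00207). Line and exposure time differ together in all 12, and their parts cannot be told apart.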

How the results depend on the processing

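No paired analysis was possible because the groups share no library numbers. Depth limits PRR5L and, in MEC1, FOXO3, which rest on as few as 11 and 30 counts per library. KLF2 is limited too, with as few as 13 counts per library with fludarabine in EHEB and 29 in JVM2. The counts of calls moved past 1.5 times in 3 cases. Under the stricter filter, higher calls against DMSO were 5 with idelalisib and 3 with ibrutinib, since genes of low count were no longer tested, and library size scaling gave 11 higher calls with fludarabine. With each library left out in turn, higher and lower calls ranged from 9 to 10 and 8 to 11 for idelalisib over DMSO, 6 to 7 and 11 to 12 for ibrutinib over DMSO, 6 to 8 and 11 to 13 for fludarabine over DMSO, 10 to 10 and 8 to 11 for idelalisib over fludarabine, 6 to 8 and 11 to 13 for ibrutinib over fludarabine, and 8 to 11 and 2 to 3 for idelalisib over ibrutinib. Genes that differed between lines numbered 5 to 7 for either inhibitor, and 22 to 25 pairs differed with DMSO. Signs turned as follows (log2 fold change), and the cause was not tested. The one called in the report was FOXO1 with fludarabine over DMSO in MEC1. Library size scaling turned the sign of PIK3IP1 with ibrutinib over DMSO in MEC1 (0.0315), FOXO1 with fludarabine over DMSO in MEC1 (0.034), PRR5L with idelalisib over fludarabine in MEC1 (−0.31), FOXO4 with ibrutinib over fludarabine in MEC1 (−0.0292), FOXO3 with idelalisib over ibrutinib in MEC1 (−0.0598), CCNG2 with idelalisib over ibrutinib in MEC1 (−0.040), FOXO1 with idelalisib over DMSO in JVM2 (0.0296), FOXO3 with idelalisib over DMSO in JVM2 (0.00582), PIK3IP1 with idelalisib over fludarabine in JVM2 (−0.0647), IRS2 with idelalisib over fludarabine in JVM2 (−0.0316), FOXO3 with idelalisib over ibrutinib in JVM2 (0.0237), FOXO4 with ibrutinib over DMSO in EHEB (0.0438). The stricter filter (mean CPM of 5) turned the sign of PIK3IP1 with ibrutinib over DMSO in MEC1 (0.0448), FOXO3 with idelalisib over ibrutinib in JVM2 (0.0314), FOXO1 with ibrutinib over fludarabine in EHEB (−0.00895). DESeq2 turned the sign of FOXO3 with idelalisib over ibrutinib in JVM2 (0.00644), FOXO1 with ibrutinib over fludarabine in EHEB (−0.011). DESeq2 size factors in edgeR turned the sign of FOXO3 with idelalisib over ibrutinib in JVM2 (0.0065), FOXO1 with ibrutinib over fludarabine in EHEB (−0.0114). No filter turned the sign of FOXO3 with idelalisib over ibrutinib in JVM2 (7.78e-05), PRR5L with ibrutinib over fludarabine in EHEB (0.0109). Counts divided by 8/3 turned the sign of FOXO3 with idelalisib over ibrutinib in JVM2 (0.0106). Limma-voom turned the sign of FOXO3 with idelalisib over DMSO in EHEB (−0.14), FOXO3 with ibrutinib over fludarabine in EHEB (−0.0459), PRR5L with ibrutinib over fludarabine in EHEB (0.0971). A fit of the 6 libraries compared turned the sign of FOXO1 with ibrutinib over fludarabine in EHEB (−0.00481). The joint fit turned the sign of PRR5L with idelalisib over fludarabine in MEC1 (−0.0649), CCNG2 with idelalisib over fludarabine in JVM2 (0.00638). The sum of FOXO3 and FOXO3B turned the sign of FOXO3 with fludarabine over DMSO in MEC1 (0.012), FOXO3 with idelalisib over ibrutinib in MEC1 (−0.0354), FOXO3 with idelalisib over ibrutinib in JVM2 (0.000707). With 1 library left out, values that crossed 0, none of them called, spanned PRR5L with idelalisib over fludarabine in MEC1 (−0.10 to 0.0999), PIK3IP1 with ibrutinib over DMSO in MEC1 (−0.24 to 0.0391), FOXO3 with idelalisib over ibrutinib in MEC1 (−0.0285 to 0.26), IRS2 with fludarabine over DMSO in JVM2 (−0.0145 to 0.0671), PIK3IP1 with idelalisib over fludarabine in JVM2 (−0.0467 to 0.17), CCNG2 with idelalisib over fludarabine in JVM2 (−0.0669 to 0.0999), FOXO3 with idelalisib over ibrutinib in JVM2 (−0.0237 to 0.00489), SESN3 with idelalisib over ibrutinib in JVM2 (−0.10 to 0.0163), FOXO1 with idelalisib over ibrutinib in JVM2 (−0.0159 to 0.0767), PIK3IP1 with idelalisib over DMSO in EHEB (−0.11 to 0.31), PIK3IP1 with ibrutinib over DMSO in EHEB (−0.11 to 0.12), FOXO3 with idelalisib over DMSO in EHEB (−0.24 to 0.42), TXNIP with idelalisib over DMSO in EHEB (−0.0692 to 0.0638), FOXO4 with ibrutinib over DMSO in EHEB (−0.16 to 0.0259), PRR5L with ibrutinib over fludarabine in EHEB (−0.33 to 0.24), FOXO1 with ibrutinib over fludarabine in EHEB (−0.00537 to 0.0555), FOXO3 with ibrutinib over fludarabine in EHEB (−0.10 to 0.49), PIK3IP1 with idelalisib over ibrutinib in EHEB (−0.13 to 0.29), FOXO3 with ibrutinib over DMSO in EHEB (−0.48 to 0.11), FOXO3 with idelalisib over ibrutinib in EHEB (−0.0796 to 0.66), FOXO4 in MEC1 over EHEB with DMSO (−0.058 to 0.0494).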
